A study of Drosophila melanogaster with 12 samples.

Results

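The group described here is a set of 7 genes of nuclear piRNA silencing in Drosophila melanogaster, of which 6 are reported one by one: piwi, Panx, nxf2, egg, wde and mael. They were taken by symbol from the ovary count table, and all 7 were found among its 17768 genes. All 7 also passed the filter on low counts, and the 6 had 1108 to 17429 fragments per gene and library. The RNA comparison set ovaries in which nanos-Gal4 drove an RNAi hairpin against Sfmbt (Sfmbt RNAi, 3 biological replicates) against ovaries in which the same driver expressed UAS-mCherry RNAi, which has no target in flies (mCherry RNAi, 3 biological replicates). Females were 2 days old after eclosion, and both groups carry the driver and a hairpin transgene. The driver acts in germ cells, so follicle cells and other somatic cells of the ovary are outside its reach, and a single hairpin against Sfmbt was used. Sfmbt binds with Pho in PhoRC, the Polycomb complex that reads DNA sequence; chromatin binding was measured with anti-Pho in yw ovaries, with anti-GFP in GFP-Sfmbt knock-in ovaries and with anti-GFP in untagged oreR ovaries, 2 replicates each. In the count table the libraries carry letters, C read as control and A as Sfmbt RNAi by elimination.

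piRNAs are small RNAs that guide Piwi proteins to transposon transcripts. In the nucleus, Piwi meets nascent transposon RNA. A complex of Panx and Nxf2 then links it to the histone methyltransferase Egg, which places the repressive mark H3K9me3 with the help of Wde. Mael acts at the same step, downstream of Piwi, to keep transposon transcription low. In the ovary the step works in germ cells and also in the follicle cells around them, so whole-ovary RNA adds both compartments. In such bulk samples, fewer cells of a type and less RNA per cell cannot be told apart.

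Libraries held 34057506 to 47315104 counted fragments in Sfmbt RNAi and 36660629 to 51297961 in mCherry RNAi. Levels are given as CPM (counts scaled to a common library size by TMM) and, between genes, as FPKM (CPM per kilobase of exon). The targeted gene Sfmbt had 43.8, 43.8 and 36.7 CPM in Sfmbt RNAi replicates 1 to 3, against 146.1, 122.4 and 123.2 CPM in mCherry RNAi, and stood at a log2 fold change of -1.66 ± 0.11 (SE; adjusted p = 0.000119, edgeR). Summed CPM of 11 germline marker genes ran from 3967 to 4411 in Sfmbt RNAi and from 3564 to 4353 in mCherry RNAi. The 12 somatic gonad and follicle cell markers summed to 371 to 541 CPM in Sfmbt RNAi and 373 to 460 CPM in mCherry RNAi. Among these markers cup was listed at 0 in every library and the others were detected. Chorion transcripts, which follicle cells make late in egg chamber development, separated the groups: 9 chorion genes summed to 7547, 20193 and 12881 CPM in Sfmbt RNAi replicates 1 to 3, against 35270, 50570 and 45373 CPM in mCherry RNAi. All 9 fell in the edgeR test. The 9 gut markers summed to 0.986 to 126 CPM in Sfmbt RNAi and 169 to 1940 CPM in mCherry RNAi, and 0 of 9 were called by edgeR (3 were lower at an unadjusted p under 0.05, and DESeq2 called 6 lower). The 6 neuron markers summed to 6.71 to 7.48 CPM in Sfmbt RNAi and 3.18 to 4.29 CPM in mCherry RNAi. Of these 3 were tested, and edgeR called 1 higher and 0 lower. Muscle, fat body, hemocyte and vitelline membrane markers had overlapping sums, but single genes were called by edgeR. Among fat body (7 tested), hemocyte (8) and vitelline membrane markers (8), 1 each was lower and 0 higher, and 0 of 10 muscle markers were called. Of 10 tested germline markers 2 were higher and 1 lower, and of 11 somatic gonad and follicle cell markers 1 was higher and 1 lower. Over all tested genes 34.7% were called. The part of these cell types in the results was not tested, except for chorion, which was added to the fit as a covariate.

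The comparison asked whether the transcripts of the silencing step change when the germline loses Sfmbt. Of the 7 genes, piwi and mael rose in Sfmbt RNAi, none fell, and 5 did not pass (edgeR's quasi-likelihood test over 9667 genes, adjusted p threshold 0.05). Both calls ended when the chorion level of each library was added to the fit. In that fit 118 of all tested genes were called, beside 3350 without the chorion term. Without the term, 3 of the 7 genes were higher and 0 lower at an unadjusted p under 0.05. DESeq2 called 3 higher and 0 lower. Across all tested genes 34.7% were called, 15.2% higher and 19.4% lower. The median log2 fold change of the 7 genes was 0.17, beside -0.04 over all tested genes, with 4 of the 7 above 0 and 3 below. Beside the rises of piwi and mael stood small positive values for nxf2 and wde and small negative values for Panx and egg.

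piwi (FBgn0004872, 2L:10982205-10987420 of BDGP6.28, minus strand) encodes the Argonaute protein that carries piRNAs into the nucleus. It had 353.7, 307.9 and 324.4 CPM in the Sfmbt RNAi libraries, against 245.9, 197.1 and 215.4 CPM in mCherry RNAi. Every Sfmbt RNAi library stood above every mCherry RNAi library, as in 22.6% of tested genes; 27.6% were separated the other way, 50.3% in all. The mean was 329 ± 23.2 CPM in Sfmbt RNAi and 219 ± 24.6 CPM in mCherry RNAi (SD, n = 3 each), a 1.5-fold rise with a log2 fold change of 0.58 ± 0.10 (SE; adjusted p = 0.00586, edgeR). When the chorion level of each library was added to the fit, piwi stood at 0.23 and did not pass. piwi shares 191 bases of its span with SCAR on the opposite strand, and fragments were counted by strand.

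Panx and nxf2 encode the partners of the complex that connects Piwi to chromatin enzymes. Panx (FBgn0034617, 2R:21310368-21312354, minus strand), the Piwi-dependent silencing factor, had 29.5, 36.3 and 40.1 CPM in Sfmbt RNAi, against 43.8, 39.6 and 41.7 CPM in mCherry RNAi. Its groups overlapped through Sfmbt RNAi replicate 3, and among the 7 genes it varied most between Sfmbt RNAi libraries, with the highest 1.36 times the lowest. The log2 fold change was -0.24 ± 0.11 (SE; adjusted p = 0.144, edgeR), and it was -0.09 when Sfmbt RNAi replicate 1, the lowest library, was left out.

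nxf2 (FBgn0036640, 3L:16576859-16580306, minus strand) belongs to the family of nuclear RNA export factors but serves in silencing. It had 109.9, 96.8 and 116.0 CPM in Sfmbt RNAi, against 105.7, 87.0 and 94.6 CPM in mCherry RNAi, and the groups overlapped. Its log2 fold change was 0.17 ± 0.10 (SE; adjusted p = 0.239, edgeR), and 0.10 without mCherry RNAi replicate 2. The log2 ratio of nxf2 to Panx counts was 1.90, 1.42 and 1.53 in Sfmbt RNAi, against 1.27, 1.14 and 1.18 in mCherry RNAi. These ratios did not overlap, and the difference was 0.42 (exact two-sided permutation p = 0.10, the smallest possible; adjusted p = 0.10 over 3 pairs). Without Sfmbt RNAi replicate 1 the difference was 0.28. Of single tested genes 50.3% did not overlap between the groups, and the share among pairs of genes was not counted. Per length, nxf2 stood at 2.11 ± 0.378 times the Panx level in Sfmbt RNAi and at 1.56 ± 0.0756 times in mCherry RNAi (SD, n = 3 each).

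egg and wde act at the chromatin end. egg (FBgn0086908, 2R:24775534-24779901, minus strand), also known as eggless, encodes the fly SETDB1, the H3K9 methyltransferase needed in ovarian germ cells and soma. Its levels were 94.4, 100.7 and 107.8 CPM in Sfmbt RNAi, against 112.9, 104.1 and 111.2 CPM in mCherry RNAi, with overlapping groups and a log2 fold change of -0.12 ± 0.07 (SE; adjusted p = 0.271, edgeR). Without Sfmbt RNAi replicate 1 it was -0.03. An antisense gene, asRNA:CR44067, covers 4191 bases of its span on the other strand and had at most 5 fragments in any library.

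wde (FBgn0027499, 2R:10800420-10808938, minus strand), also known as windei, encodes the ATF7IP-like cofactor of Egg. It had 131.7, 145.5 and 165.9 CPM in Sfmbt RNAi, against 134.7, 118.8 and 119.6 CPM in mCherry RNAi. Sfmbt RNAi replicate 1 lay within the mCherry RNAi range and replicates 2 and 3 lay above it. The log2 fold change was 0.25 ± 0.10 (SE; adjusted p = 0.0975, edgeR). wde was called without Sfmbt RNAi replicate 1 (log2 fold change 0.36, adjusted p = 0.0413, edgeR) and by DESeq2 (0.28, DESeq2 adjusted p = 0.0498).

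Within this enzyme and cofactor pair the log2 ratio of wde to egg counts was 0.48, 0.53 and 0.62 in Sfmbt RNAi, against 0.26, 0.19 and 0.10 in mCherry RNAi. The groups did not overlap, and the difference was 0.36 (exact two-sided permutation p = 0.10, the smallest possible; adjusted p = 0.10 over 3 pairs). Here too, how many pairs of genes separate likewise was not counted. Per length wde stood at 1.18 ± 0.0594 times the egg level in Sfmbt RNAi and at 0.921 ± 0.0481 times in mCherry RNAi (SD, n = 3 each), so the order of the pair's mean levels was exchanged between the groups.

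mael (FBgn0016034, 3L:22721203-22726234, plus strand), also known as maelstrom, encodes an HMG-box protein found in the nucleus and in the perinuclear nuage. It had 148.3, 142.8 and 152.9 CPM in Sfmbt RNAi, against 119.5, 97.4 and 105.2 CPM in mCherry RNAi, again without overlap. The mean was 148 ± 5.07 CPM in Sfmbt RNAi and 107 ± 11.2 CPM in mCherry RNAi (SD, n = 3 each), a 1.38-fold rise with a log2 fold change of 0.46 ± 0.09 (SE; adjusted p = 0.00758, edgeR). CG14451 overlaps mael by 862 bases on the opposite strand. It had 99, 80 and 136 fragments in Sfmbt RNAi, against 3, 4 and 3 in mCherry RNAi, while mael itself had 5194 to 8214 and 3557 to 5746 fragments in those groups. Of the 7 genes 2, piwi and mael, were separated with higher values in Sfmbt RNAi, 1 was separated with lower values and 4 overlapped, beside 22.6% higher and 27.6% lower over all tested genes. With the chorion term mael had a log2 fold change of 0.28 and did not pass.

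**Figure D1:**
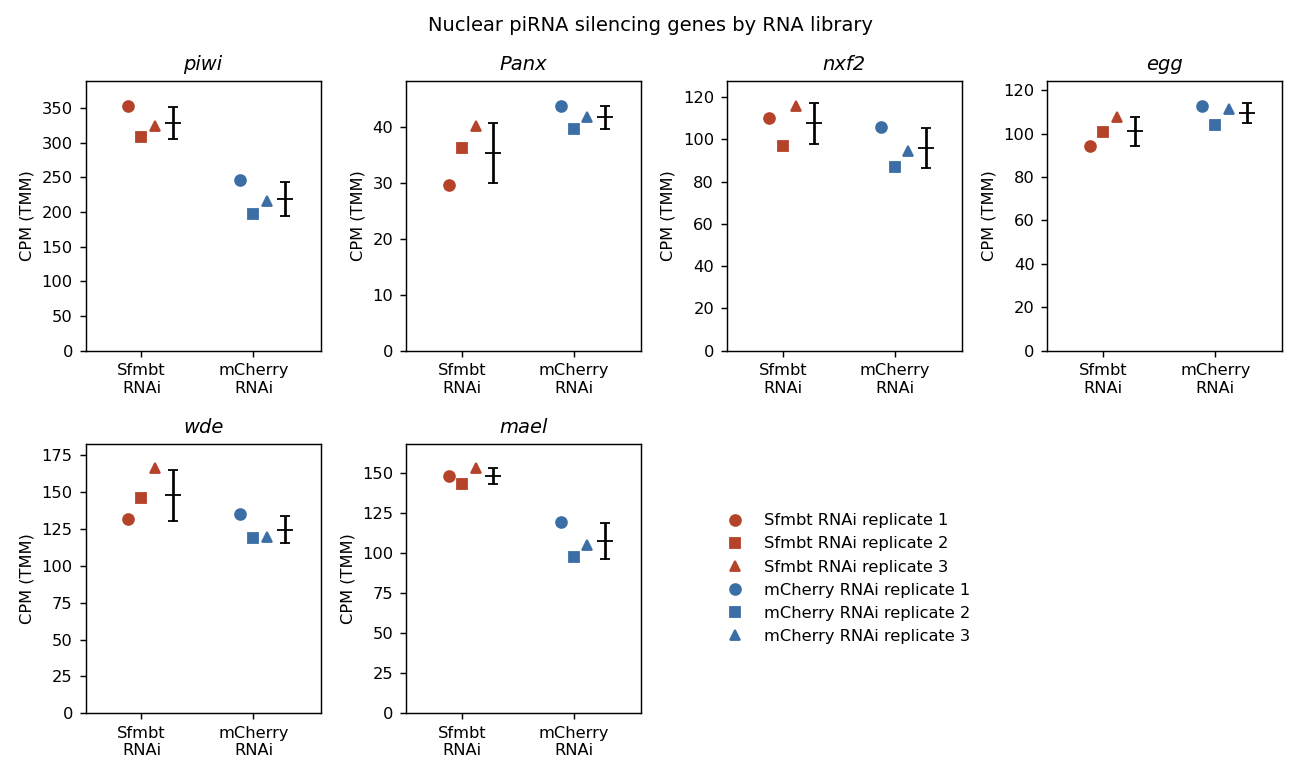
CPM (TMM-scaled, axes from 0) of 6 silencing genes in each RNA library; symbols mark the replicate and the bar beside each group is the mean ± SD of 3 libraries. The piwi libraries of Sfmbt RNAi sit between 307.9 and 353.7 CPM, all above the mCherry RNAi range of 197.1 to 245.9, and mael is separated in the same direction.

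Levels of different genes were compared per exon length. In Sfmbt RNAi the order was piwi (107 ± 7.55 FPKM), mael (68.8 ± 2.36), nxf2 (36.9 ± 3.36), wde (30.4 ± 3.54), egg (25.6 ± 1.70) and Panx (17.8 ± 2.69; SD, n = 3). In mCherry RNAi it was piwi (71.4 ± 8.01 FPKM), mael (49.9 ± 5.20), nxf2 (32.8 ± 3.22), egg (27.8 ± 1.19), wde (25.6 ± 1.85) and Panx (21.0 ± 1.05; SD, n = 3). piwi and mael led and Panx was last in both groups, clear of their neighbours' ranges. From nxf2 to egg each gene's range overlapped the next one's in Sfmbt RNAi. In mCherry RNAi egg overlapped wde, while nxf2 and egg were apart. Averaged over the 6 libraries, the FPKM of the 7 genes stood above 55.9% (Panx) to 92.1% (piwi) of tested genes.

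Summed over the 7 genes the level was 314, 301 and 327 FPKM in Sfmbt RNAi, against 280, 239 and 257 FPKM in mCherry RNAi. Of this sum piwi made up 36.6%, 33.3% and 32.3% in Sfmbt RNAi, against 28.6%, 26.8% and 27.2% in mCherry RNAi, and mael 21.9 ± 0.159% and 19.3 ± 0.511% in the same order (SD, n = 3 each). These shares were larger in every Sfmbt RNAi library. The shares of egg and Panx were smaller in every one, at 8.17 ± 0.468% and 5.66 ± 0.804% in Sfmbt RNAi, against 10.8 ± 0.444% and 8.12 ± 0.233% in mCherry RNAi (SD, n = 3 each). nxf2 made up 11.7 ± 0.612% in Sfmbt RNAi and 12.7 ± 0.247% in mCherry RNAi, also without overlap. The shares of a library are parts of 1 sum, so a larger piwi share lowers the others and they are not separate results. The mean nxf2 level itself was 36.9 FPKM in Sfmbt RNAi and 32.8 FPKM in mCherry RNAi. The wde shares overlapped, with 9.68 ± 0.942% and 9.90 ± 0.333%. The exact two-sided permutation p was 0.10, the smallest possible, for piwi, mael, egg, Panx and nxf2 and 0.90 for wde, and adjusted over 7 genes 0.117 and 0.90, so none passed.

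Around these 7 genes, 15 further genes were listed that work with them on chromatin, and the 14 that were matched were all tested. Of these 4 fell and 0 rose, with 10 not passing (19.4% of all tested genes fell). At an unadjusted p under 0.05, 2 were higher, and DESeq2 called 2 higher and 4 lower. The median log2 fold change of the 14 was -0.14, beside -0.04 over all tested genes. HDAC1, the histone deacetylase, had 151 ± 12.4 CPM in Sfmbt RNAi and 192 ± 14.6 CPM in mCherry RNAi (SD, n = 3 each; log2 fold change -0.35, adjusted p = 0.0232, edgeR). ova, which joins HP1a to the demethylase Su(var)3-3, had 123 ± 1.92 CPM in Sfmbt RNAi and 153 ± 9.36 CPM in mCherry RNAi (-0.32, adjusted p = 0.0121, edgeR). CoRest, the scaffold of that demethylase, stood at -0.26 on the log2 scale, and the gene of HP1a (FBgn0003607), which binds H3K9me3, at -0.23 (adjusted p = 0.0353 and 0.0265, edgeR). Their levels in Sfmbt RNAi were 0.786 to 0.851 of those in mCherry RNAi.

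The direct partners of the Panx complex did not pass the test. Nxt1, the small partner of Nxf2, had 44.3 ± 2.27 CPM in Sfmbt RNAi and 45.8 ± 0.851 CPM in mCherry RNAi (SD, n = 3 each; log2 fold change -0.05, adjusted p = 0.590, edgeR). ctp, the dynein light chain that dimerises Panx, stood at 0.17 on the log2 scale (adjusted p = 0.290, edgeR). The SUMO pathway genes Su(var)2-10, Sumo and lwr had -0.20, 0.23 and -0.07 (adjusted p = 0.147, 0.0791 and 0.556, edgeR), and bon, a corepressor bound by Su(var)2-10, had 0.06 (adjusted p = 0.597, edgeR). The remodeller gene Mi-2 had 0.35 (adjusted p = 0.0558, edgeR). Among enzymes of histone methylation and demethylation, G9a had 0.20, Su(var)3-9 -0.33 and the demethylase gene Su(var)3-3 -0.22 (adjusted p = 0.250, 0.113 and 0.193, edgeR). Sumo was called with RLE scaling (adjusted p = 0.0457, edgeR) and Mi-2 with RLE scaling and with a filter of 1 CPM in 3 libraries (0.0442 and 0.0420, edgeR), and DESeq2 called both. Leaving out 1 library brought 3 more calls: Mi-2 without mCherry RNAi replicate 1, Su(var)3-3 without Sfmbt RNAi replicate 3 and Su(var)3-9 without Sfmbt RNAi replicate 1 (adjusted p = 0.0231, 0.0389 and 0.0178, edgeR). Of the 4 falls, CoRest missed with RLE scaling and the gene of HP1a with no filter on low counts (adjusted p = 0.0776 and 0.0511, edgeR). The falls also depended on single libraries. Without Sfmbt RNAi replicate 2 or mCherry RNAi replicate 2, ova was the 1 partner called lower, and without mCherry RNAi replicate 3 HDAC1 was. Without mCherry RNAi replicate 1 these were ova and the gene of HP1a. Without Sfmbt RNAi replicate 1 they were ova and Su(var)3-9, and without Sfmbt RNAi replicate 3 Su(var)3-3 was called and the gene of HP1a was not. In the fit with a chorion term none of the 4 passed. There HDAC1 stood at -0.48 ± 0.21 and ova at -0.43 ± 0.15 (SE, edgeR adjusted p = 0.386 and 0.285). The gene of HP1a stood at -0.26 ± 0.13 and CoRest at -0.21 ± 0.17 (SE, edgeR adjusted p = 0.458 and 0.667).

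**Figure D2:**
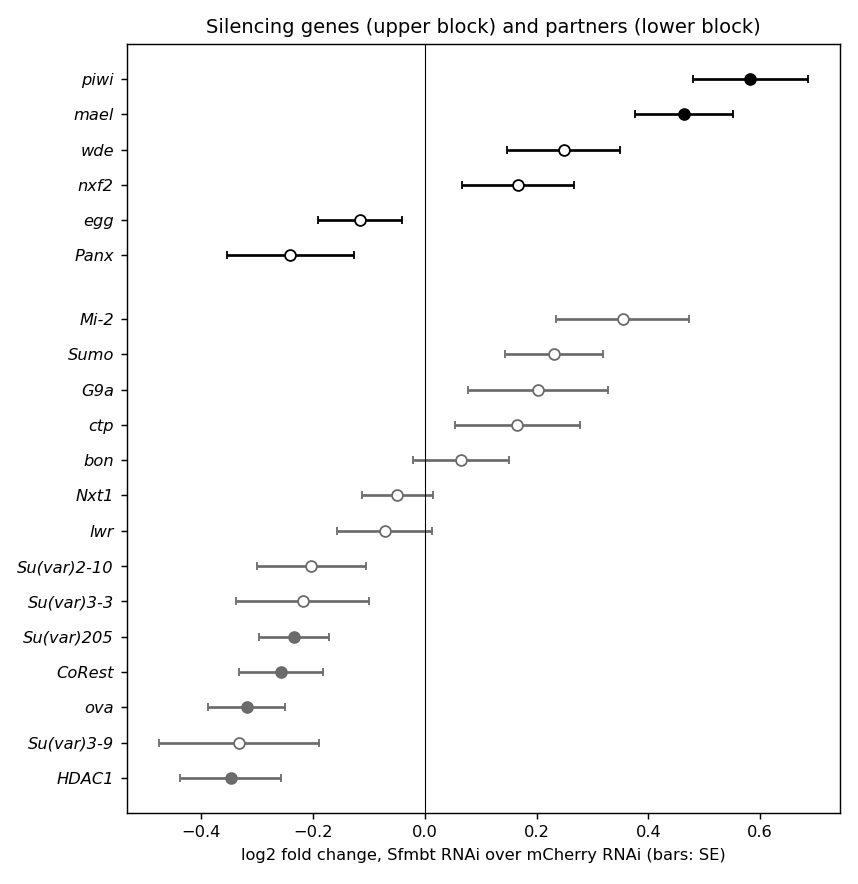
Log2 fold change of Sfmbt RNAi over mCherry RNAi (points) with SE (bars) for 6 silencing genes in the upper block and 14 partner genes in the lower block; filled points passed an edgeR adjusted p of 0.05. In the upper block piwi (0.58) and mael (0.46) are filled, and in the lower block HDAC1, ova, CoRest and the gene of HP1a are filled, all below 0.

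Piwi reaches the nucleus only once it has been loaded with a piRNA, and 12 genes of piRNA biogenesis and loading were listed for that step. Of these 6 rose, 0 fell and 6 did not pass, at a median log2 fold change of 0.27, beside 15.2% higher, 19.4% lower and a median of -0.04 over all tested genes. At an unadjusted p under 0.05 and by DESeq2 the number that fell was likewise 0. The largest rises were in the Tudor-domain genes fs(1)Yb, BoYb and SoYb. fs(1)Yb, known for its role in follicle cells, had 11.2 ± 1.35 CPM in Sfmbt RNAi and 5.60 ± 0.709 CPM in mCherry RNAi (SD, n = 3 each; log2 fold change 1.00, adjusted p = 0.00544, edgeR). Its relatives BoYb and SoYb had log2 fold changes of 0.80 and 0.43. Without mCherry RNAi replicate 2, or without mCherry RNAi replicate 3, 3 of the 12 were called. With the chorion term 0 were called, at log2 fold changes of 0.61 for fs(1)Yb, 0.65 for BoYb and 0.21 for SoYb.

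In precursor transcription and in cytoplasmic amplification, which also precede nuclear silencing, changes went both ways. Over all tested genes 15.2% rose and 19.4% fell. Of 8 genes for transcription and export of piRNA precursors 3 rose and 1 fell: Nxf3, which exports precursors, had a log2 fold change of 1.12, cuff and rhi, whose proteins mark and protect germline clusters, 0.95 and 0.93, and moon, which starts cluster transcription, -2.61. Of 11 cytoplasmic amplification genes 5 rose and 2 fell, with qin, aub and vas (a Tudor-domain protein, an Argonaute and a helicase of the nuage) at 0.89, 0.88 and 0.78 and squ and tej at -1.22 and -0.43. In the fit with a chorion term moon and squ kept their calls and the other genes named from these lists did not pass. There rhi, cuff and tej stood at 1.08, 0.90 and -0.49, and Nxf3, aub, vas and qin at 0.56, 0.29, 0.24 and 0.13. The call of qin was also lost without mCherry RNAi replicate 2 (adjusted p = 0.0543, edgeR). The export factor relatives nxf2 and Nxf3 thus had log2 fold changes of 0.17 and 1.12; their difference was not tested. The Argonaute genes piwi and aub stood at 0.58 and 0.88 in the same fit.

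A pair of transcripts linked to the piRNA pathway or to the enzymes of the silencing step were listed. Phf7, a gene on X that Egg and Wde keep in its female form in germ cells, had 62.4, 63.4 and 65.0 CPM in Sfmbt RNAi, against 58.9, 55.1 and 51.5 CPM in mCherry RNAi. Its groups did not overlap, and the log2 fold change of 0.21 ± 0.07 (SE) did not pass (adjusted p = 0.0558, edgeR). It passed with RLE scaling, with a filter of 1 CPM in 3 libraries, without mCherry RNAi replicate 1 and with DESeq2 (adjusted p = 0.0429, 0.0370, 0.0387 and 0.0227). Fragments were counted per gene, so the female form of Phf7 was not told apart from its other forms. The flamenco piRNA precursor, lncRNA:flam, counted from uniquely mapped fragments only, had 0.746, 0.742 and 0.745 CPM in Sfmbt RNAi, against 0.936, 0.826 and 0.592 CPM in mCherry RNAi, with overlapping groups (log2 fold change -0.08 ± 0.29 SE, adjusted p = 0.860, edgeR). This level was under 1 CPM in every library, so the filter of 1 CPM in 3 libraries removed the gene. Whole-ovary RNA does not tell whether lncRNA:flam came from germ cells, so its value gives no reading of germline silencing.

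No Pho and Sfmbt summit was assigned to any of the 7 genes in the authors' deposited table of 352 summits, and none lay within their spans. Those 352 summits were assigned to 289 genes, beside 17768 genes counted in the RNA libraries. The nearest summits were 26.8 kb from the start of wde, on the side of CG33144, and 33.9 kb from egg, at Dll. For piwi, Panx and nxf2 the distance was 145, 401 and 467 kb, and for mael 1087 kb. Of the 47 other listed genes of the pathway that were matched, 4 carried a summit: bon, lwr, CtBP and Hel25E. The authors' deposited table gives 5.27 RPM of Pho, 0.947 RPM of GFP-Sfmbt and 0.420 RPM of untagged signal at the CtBP summit. In the same order the values were 1.63, 0.856 and 0.462 RPM at lwr and 2.13, 1.08 and 0.420 RPM at bon. At Hel25E they were 6.40, 0.749 and 0.462 RPM.

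The chorion difference between the groups moved with the piwi result. The 6 piwi values stood in exactly the reverse order of the libraries' summed chorion CPM, from Sfmbt RNAi replicate 1 with the least chorion RNA and the most piwi to mCherry RNAi replicate 2 with the most chorion RNA and the least piwi. Over all tested genes 2.29% had this reverse order and 1.86% the same order as chorion; of the 7 genes 1 had the reverse order and 0 the same. mael followed it except that Sfmbt RNAi replicate 3 exceeded replicate 1. With the summed chorion CPM (log2) added to the fit, piwi had a log2 fold change of 0.23 ± 0.17 and mael 0.28 ± 0.19 (SE; adjusted p = 0.630 and 0.574, edgeR), so both calls ended. The groups do not overlap in chorion level, so it and the knockdown cannot be fully told apart. Beside 3350 without the chorion term, 118 of all tested genes were called in that fit. Sfmbt itself kept its call (log2 fold change -1.79, adjusted p = 0.0364, edgeR).

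**Figure D3:**
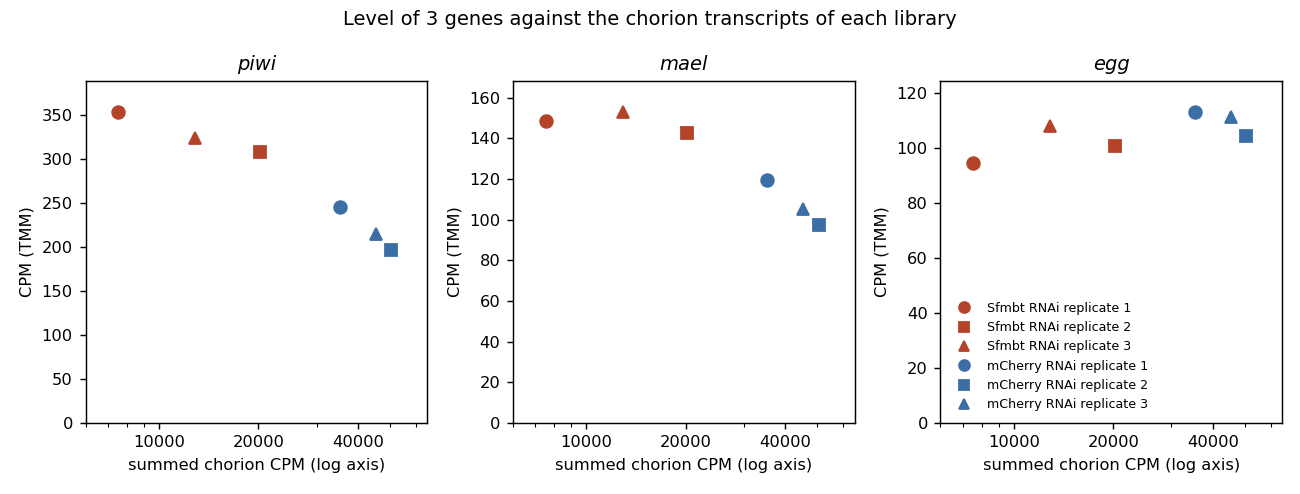
CPM of piwi, mael and egg (vertical axes, linear, from 0) against the summed CPM of 9 chorion genes (horizontal log axes) in the 6 RNA libraries. The 3 Sfmbt RNAi libraries lie at 7547 to 20193 chorion CPM and the 3 mCherry RNAi libraries at 35270 to 50570, and piwi runs in the reverse order of chorion throughout.

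Without that term the piwi and mael calls held in each fit that was run. Leaving out 1 library at a time, piwi had log2 fold changes of 0.51 to 0.67 (adjusted p = 0.00494 to 0.0324, edgeR) and mael 0.39 to 0.54 (0.00478 to 0.0385). With the covariate Panx and nxf2 changed sign, to 0.03 and -0.14, and wde stood at 0.33 with an SE of 0.24.

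**Figure D4:**
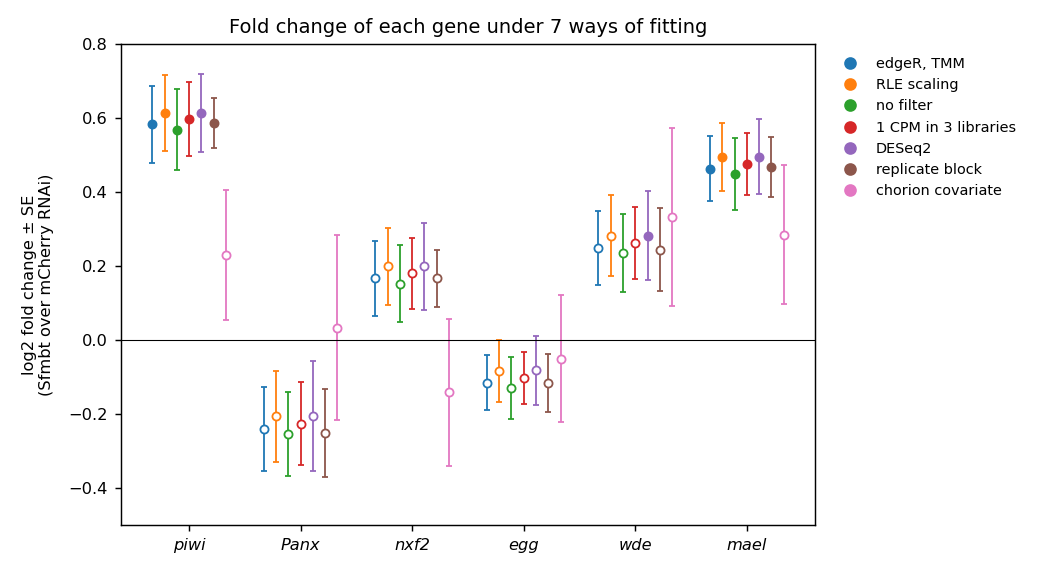
Log2 fold change (points) with SE (bars) of 6 silencing genes under 7 ways of fitting; filled points passed an adjusted p of 0.05. piwi and mael are filled in all fits except the one with the chorion covariate, where they stand at 0.23 and 0.28; wde is filled with DESeq2 alone (0.28).

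The most similar profile to a gene was sought among 6653 other genes with a mean of at least 10 CPM, by the root-mean-square difference of centred log2 CPM over the 6 libraries. The nearest gene to piwi was Slik (0.0469), a kinase gene, with a log2 fold change of 0.56. For nxf2 it was GlnRS (0.0280), for wde Aduk (0.0162), for egg Tap42 (0.0116) and for Panx CG7407 (0.0186). These nearest genes are not among the listed piRNA genes. Between the 6 silencing genes the closest profiles were those of piwi and mael (0.0800).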

How the data were processed

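The deposited count table holds counts of fragments per gene, produced by the authors from STAR alignments using featureCounts 1.6.3 and the BDGP6.28 annotation, per the file headers; fragments were counted by strand (reverse), as pairs with both ends mapped. STAR 2.7.2a is named in the submitters' processing notes. Fragments that map to several places or overlap several genes on 1 strand were not counted. The deposited peak table gives the authors' RPM per summit, 1 value per ChIP group; it also holds the authors' log2 fold change, adjusted p-value, TPM and rank score, which the deposited table gives for genes with a summit. How these were made is not given in the sources used here.

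The count columns carry a letter and a number. The letter C was read as control, the word the design text uses for mCherry RNAi, and the letter A as Sfmbt RNAi by elimination; the numbers were read as replicates. Afterwards, over 220 genes, fold changes from this reading and those of the authors' deposited table had Pearson's r of 0.994 across genes, and the sign was shared by 92 of the 92 genes that table calls at 0.05.

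edgeR 4.0.16 in R 4.3.3 was fitted to the whole table: filterByExpr with a minimum count of 10, TMM scaling, robust quasi-likelihood F-test, group as the only term, Benjamini-Hochberg adjustment at 0.05. Standard errors derive from the F statistic. FPKM uses the exon length in the table. Log2 ratios add 0.5 counts. On simulated data in which 200 genes were changed, 84.6% of genes changed 4-fold, 61.2% changed 2-fold and 33.8% changed 1.5-fold were recovered. Alternatives were RLE scaling, 2 other filters, DESeq2 1.42.0, a replicate block, a chorion covariate and leaving out each library. No pair of replicates was as close as sampling noise would leave it, with a chi-square of at least 26.8 per gene. The series' design text calls the replicates biological.

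The 7 genes and all lists were chosen with earlier results of these data known. Of 136 listed genes 135 were matched, 4 by a synonym. Named besides the 7 and Sfmbt were all tested chromatin partners and up to 3 called genes per direction in the other lists. Phf7, lncRNA:flam and the nearest profile of each gene were also named. CG14451, SCAR and asRNA:CR44067 were named after their values were seen, as overlapping genes, and CtBP and Hel25E for their summits. 1 gene of the 7 and the nearest profile of mael are not reported here; counts, medians and summed levels over the 7 include the gene. Sequences are not shown.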

Additional observations from a re-analysis of the deposited data

How the results depend on the processing

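Over RLE scaling, the 2 other filters, DESeq2, the replicate block and each fit without 1 library, piwi and mael kept their direction and their call, and the number of the 7 genes called higher was 2 or 3. With the chorion covariate it was 0 (piwi 0.23, mael 0.28), Panx and nxf2 reversed to 0.033 and -0.14, and 118 genes were called in all, with 0 chromatin partners lower and 0 loading genes higher. Errors were larger there, and HDAC1 and ova lost their calls at -0.48 and -0.43. wde became a call with DESeq2 (0.28) and without Sfmbt RNAi replicate 1; leaving out 1 library gave 0.16 to 0.36 for it. Without 1 library, 1756 to 3295 of all genes were called, 1 to 4 partners fell and 3 to 6 loading genes rose. Leaving out 1 library, the wde share difference ran from -0.605 to 0.306 percentage points, positive without Sfmbt RNAi replicate 1, and among other genes ctp, Sumo and G9a reversed with the covariate (-0.12, -0.028 and -0.0052), and lncRNA:flam ran from -0.25 to 0.061, positive without mCherry RNAi replicate 1.

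With the replicate number as a block, 1 partner (ova) fell in place of 4, with adjusted p = 0.0533, 0.0548 and 0.0679 in edgeR for HDAC1, the gene of HP1a and CoRest, and no call of the 7 genes changed. Same-numbered libraries deviated together with correlations of 0.432, 0.305 and 0.0729, under the bound of 0.1 for the last, so the numbers were not taken as pairing libraries; only number 1 correlated best with its own number in both groups. Exact paired sign-flip permutation tests of the 3 ratios of genes gave p = 0.25, the smallest that 3 pairs allow. The 6 genes reported singly had 1108 or more fragments per library. Simulated 1.5-fold changes were found in 33.8% of genes. That simulation changed 200 genes drawn from all levels, whereas 3350 genes were called in the data, so its rates do not carry over to the 7 genes. A change as small as that of egg or nxf2 may go uncalled, but how often was not tested.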
